A study of Mus musculus with 12 samples.

Results

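The immunoglobulin constant regions and the joining chain were followed through their probe sets, which are groups of short oligonucleotides on the array that together read one transcript or a set of similar ones. A probe set was taken where its gene symbols included Ighm, Ighd, Igha, Ighg1, Ighg2b, Ighg3, Ighe, Igkc, Iglc1 or Jchain, whether alone or beside other symbols. This gave 27 of the 45037 probe sets tested, 19 of them with 1 symbol and 8 with several. They were measured in splenic B cells of mice on an Affymetrix mouse genome array in 4 groups of 3 arrays. Transgenic (Tg) cells carried EFLmDREAM and wild type (WT) cells did not, and cells of each genotype were taken either after a 2-day culture in LPS (20 µg/ml) plus 10 ng/ml of IL-4 (stimulated) or at day 0 without either agent (unstimulated). All cells had been isolated from spleen by depletion with CD43 beads to a stated purity above 98%, and the labels call the replicates independent biological samples. The promoter that drives the transgene, and the strain, sex and age of the mice, are not given in the sources used here.

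An antibody is built from paired heavy and light chains, and the constant region of its heavy chain sets its class. A resting B cell transcribes Ighm and Ighd and carries the protein in its membrane as the antigen receptor; once activated it can exchange Ighm for a downstream constant gene by class switch recombination and, as a plasma cell, secrete large amounts of antibody, with IgM and IgA polymers held together by the J chain. LPS is a mitogen of mouse B cells, and IL-4 is known to direct switching in mouse towards IgG1 and IgE.

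Not every constant region could be read. Of the 10 genes, 6 had a probe set, and Ighd, Ighg1, Ighg2b and Ighe, which include the classes that IL-4 favours, had none under the array annotation used here. Genes with probe sets of their own were Ighm with 11, Ighg3 with 4, Igha with 3 and Jchain with 1. The kappa constant region Igkc was read by 3 probe sets that also carried Igkv6-23, Igkv4-53, Igkv8-30 and Igkj1, and the lambda constant region Iglc1 by 1 probe set that also carried Iglv1. Ighm appeared in 4 more shared probe sets, 1 with the variable segment Ighv1-72 and 3 with Ighg3 and Ighv14-2. The heavy chain constant genes lie on chromosome 12 in the order Ighm, Ighd, Ighg3, Ighg1, Ighg2b, Ighe and Igha, while Igkc lies on chromosome 6, Iglc1 on chromosome 16 and Jchain on chromosome 5. On this platform a name ending in _s_at marks probes shared by transcripts of several genes, _x_at marks some probes that resemble other sequences, and _a_at marks alternative transcripts of a gene. Probes of this kind can read related immunoglobulin transcripts, so each probe set is reported apart and named by its symbols, and the signals of different probe sets are not read as relative amounts of mRNA.

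The arrays within a group correlated at 0.984 to 0.997 and no pair was identical. Kcnip3, the gene of DREAM, did not differ between the genotypes at either of its 2 probe sets (changes of 0.02 to 0.23, adjusted p = 0.279 to 0.98 by limma), and the sources used here do not say whether they read the transgene. WT unstimulated replicate 1 had an actin 5′ minus 3′ signal of −2.22, against −1.36 to −0.43 in the other 11 arrays. In the 3rd replicate of every group the Y-linked gene Eif2s3y read 3.33 to 3.78, against 8.27 to 9.55 in the others. The median level of an array was 5.36 to 5.41 in stimulated cells and 5.97 to 6.05 in unstimulated cells. For that reason stimulated and unstimulated cells were compared after quantile normalization over all arrays, while the genotypes and the interaction were compared on the values as deposited. B cell markers were abundant in all groups, with a mean log2 level over the 5 measured genes of 10.81 to 10.97 in Tg stimulated, 10.65 to 10.87 in WT stimulated, 11.76 to 11.86 in Tg unstimulated and 11.71 to 11.94 in WT unstimulated cells.

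**Figure D1:**
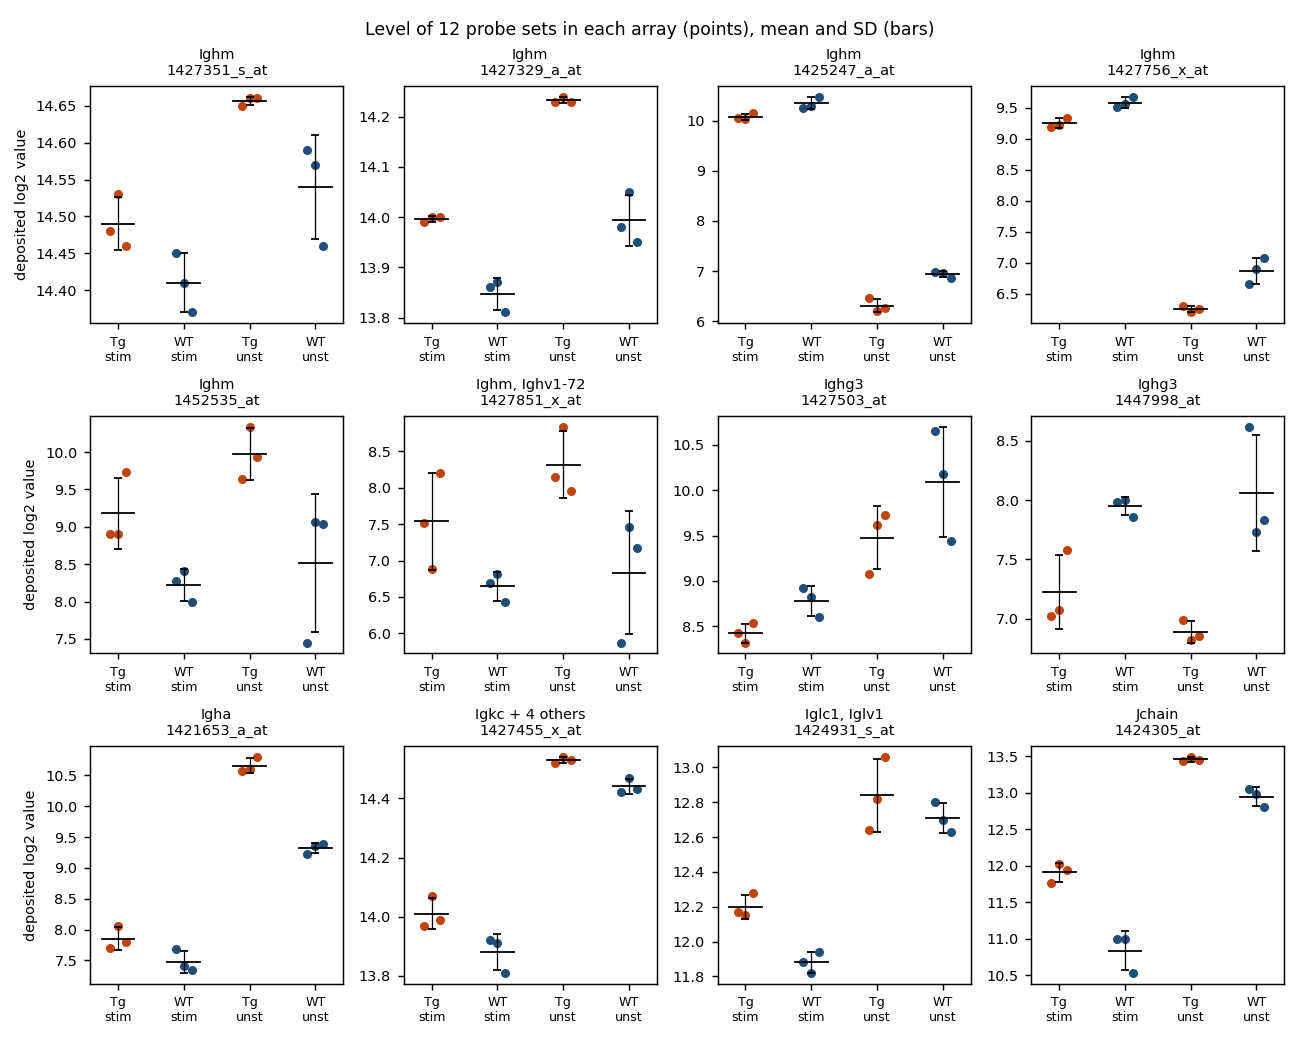
Deposited log2 level (vertical axes, 1 scale per panel) of 12 immunoglobulin and J chain probe sets in each array, by group (horizontal axes). Points are arrays, orange for Tg and blue for WT, and black bars are the mean and SD of 3 arrays. The Igha panel shows Tg above WT in unstimulated cells, and the Jchain panel shows Tg above WT in both states.

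The first question was whether the genotypes differed before stimulation. Unstimulated Tg cells held more Igha mRNA at all 3 of its probe sets and more Jchain mRNA. Of the 11 Ighm probe sets 2 were higher and 3 lower in Tg, and 1 of the 4 Ighg3 probe sets was lower. Ighm was also among the symbols of the 2 shared probe sets that were higher in Tg. The probe sets that carry a light chain constant region passed the test in neither direction. Of the 27 probe sets 12 passed an adjusted p of 0.05 in limma's moderated test, 8 higher and 4 lower in Tg. Over all probe sets tested the share was 9.45%, with 4.47% higher and 4.98% lower. Without Tg unstimulated replicate 2 or 3 the 27 gave 7 calls, 3 higher and 4 lower. With only the unstimulated arrays fitted they gave 8, 4 higher and 4 lower. The calls lost there were those of 1427329_a_at, 1452535_at, 1427851_x_at and 1451947_at, all of which carry Ighm (adjusted p = 0.0722 to 0.136 by limma). The median change of the 27 was 0.10, against 0.01 over all probe sets.

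Igha encodes the constant region of IgA, the class secreted at mucosal surfaces. Its probe set 1421653_a_at read 10.57, 10.60 and 10.80 in Tg unstimulated arrays, against 9.23, 9.36 and 9.38 in WT unstimulated arrays. Every Tg array was above every WT array by more than 1 log2 unit, a change of 1.33 ± 0.11 (2.52-fold, SE from limma, adjusted p = 1.40e-05, n = 3 each). The probe sets 1425763_x_at and 1429381_x_at, also annotated to Igha alone, were higher by 1.25 ± 0.11 (2.37-fold, adjusted p = 2.14e-05) and 1.20 ± 0.089 (2.3-fold, adjusted p = 3.93e-06). These calls were kept under all alternatives tried. In bulk RNA more cells of one type and more RNA per cell cannot be told apart.

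Markers of other cells moved with genotype in the same arrays. The 8 measured plasma cell markers had a mean level of 9.09 to 9.28 in Tg unstimulated and 8.41 to 8.77 in WT unstimulated arrays, and 4 of the 8 were higher in Tg: Prg2 by 2.14 ± 0.28 (adjusted p = 0.000405), Xbp1 by 0.75 ± 0.086 (adjusted p = 0.000161), Sdc1 by 0.58 ± 0.12 (adjusted p = 0.0108, and 0.0552 without Tg replicate 3) and Mzb1 by 0.51. Marginal zone B cell markers were higher at 5 of 6 (9.88 to 9.98 in Tg, 9.08 to 9.27 in WT) and B-1 cell markers at 3 of 6 (6.95 to 7.16 in Tg, 6.50 to 6.54 in WT). Granulocyte markers were higher at 8 of 8 (9.66 to 10.17 in Tg, 6.13 to 6.41 in WT), macrophage markers at 8 of 8 (8.66 to 9.01 in Tg, 7.18 to 7.42 in WT), erythroid markers at 4 of 5 (7.40 to 7.88 in Tg, 5.81 to 6.52 in WT) and T and NK cell markers at 3 of 8 (7.03 to 7.16 in Tg, 6.35 to 6.68 in WT). B cell markers were higher at 0 of 5. The part these cells have in the Igha and Jchain differences was not tested.

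Jchain encodes the small protein that links IgM pentamers and IgA dimers. Its promoter is shown because Jchain is the only member whose sequence was matched in the RefSeq promoter table: it spans 300 bases on the minus strand of chromosome 5 at chr5:88527848-88528147 in GRCm38.p6 around the transcription start, with E-box matches (CANNTG, searched on both strands, which read alike) in capitals.
Jchain promoter: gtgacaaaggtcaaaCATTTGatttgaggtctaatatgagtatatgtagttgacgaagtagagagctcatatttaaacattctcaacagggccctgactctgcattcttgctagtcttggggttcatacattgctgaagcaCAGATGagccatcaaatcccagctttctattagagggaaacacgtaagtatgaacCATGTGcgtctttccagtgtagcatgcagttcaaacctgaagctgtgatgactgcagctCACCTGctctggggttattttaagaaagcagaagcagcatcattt
The window held 4 matches to CANNTG, which 72.3% of all 32851 promoters in the table hold at least once, and none to GAGGAA or its reverse complement, which 28.3% hold. In unstimulated cells Jchain read 13.43, 13.49 and 13.45 in Tg arrays, against 13.05, 12.98 and 12.80 in WT arrays, so the groups did not overlap. The change was 0.51 ± 0.12 (1.43-fold, adjusted p = 0.0192). It stayed at 0.50 to 0.53 when Tg replicate 1, 2 or 3 was left out, with adjusted p = 0.0529, 0.0592 and 0.064, which no longer passed.

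Ighm, the constant region of IgM, gave answers that differed between its probe sets. The probe set 1427351_s_at read 14.65, 14.66 and 14.66 in Tg unstimulated arrays, against 14.59, 14.57 and 14.46 in WT unstimulated arrays, and this change of 0.12 ± 0.067 did not pass (adjusted p = 0.317). The probe set 1427329_a_at read 14.23, 14.24 and 14.23 in Tg, against 13.98, 14.05 and 13.95 in WT, a change of 0.24 ± 0.064 (1.18-fold, adjusted p = 0.0327) that was lost without any one of Tg replicates 1, 2 and 3 or WT replicates 1 and 3. The call of 1427329_a_at was also lost with array medians subtracted (adjusted p = 0.085 by limma). The changes of both probe sets were small beside those of the other Ighm probe sets that passed. The signals of both lay near the top of the scale, 1427351_s_at at rank 1 on every array and 1427329_a_at at ranks 5 to 26.

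Other Ighm probe sets read lower in Tg. The probe set 1425247_a_at read 6.46, 6.20 and 6.27 in Tg unstimulated arrays, against 6.98, 6.97 and 6.87 in WT unstimulated arrays (−0.63 ± 0.089, adjusted p = 0.000726). The probe sets 1425324_x_at and 1427756_x_at changed by −0.60 ± 0.098 (adjusted p = 0.00221) and −0.62 ± 0.1 (adjusted p = 0.0021). In these 3 the Tg arrays lay below the WT arrays without overlap, and the calls were kept under all alternatives tried. A 4th, 1427870_x_at, which rose with them on stimulation, read 7.33 to 7.43 in Tg and 7.45 to 7.52 in WT and did not pass (−0.09 ± 0.085, adjusted p = 0.59).

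A pair of Ighm probe sets was higher in Tg and spread widely. The probe set 1452535_at read 9.64, 10.34 and 9.94 in Tg unstimulated arrays, against 7.45, 9.06 and 9.04 in WT unstimulated arrays (1.46 ± 0.37, 2.74-fold, adjusted p = 0.0263). The probe set 1427851_x_at, shared with Ighv1-72, read 8.15, 8.84 and 7.96 in Tg, against 5.87, 7.46 and 7.17 in WT (1.48 ± 0.39, 2.8-fold, adjusted p = 0.0313). The lowest value of both lay in WT replicate 1, the array with the lowest actin signal ratio. Without it the changes were 0.92 (adjusted p = 0.0386) and 1.00 (adjusted p = 0.0871). The call of 1452535_at was also lost without Tg replicate 2 or 3 (adjusted p = 0.092 and 0.0798). That of 1427851_x_at was also lost without Tg replicate 1, 2 or 3 (adjusted p = 0.068, 0.111 and 0.0552). Of the 3 probe sets shared with Ighg3 and Ighv14-2, 1451947_at was higher by 0.38 ± 0.091 (adjusted p = 0.0216), a call lost without WT replicate 1 or any single Tg replicate, and 1427758_x_at and 1452538_at did not pass (0.05 and 0.03). Among the remaining own probe sets of Ighm, 1425385_a_at read 8.29 to 9.70 in Tg and 9.29 to 9.89 in WT with overlapping arrays (−0.82 ± 0.36, adjusted p = 0.184), and 1451949_at, 1427869_at and 1426196_at changed by 0.03 to 0.17 without passing.

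Ighg3 encodes the constant region of IgG3, an IgG class that mouse B cells make in response to LPS. Its probe set 1447998_at read 6.99, 6.82 and 6.85 in Tg unstimulated arrays, against 8.62, 7.73 and 7.83 in WT unstimulated arrays. The groups did not overlap and the change was −1.17 ± 0.2 (a Tg over WT ratio of 0.443, adjusted p = 0.00291); it was −0.89 (adjusted p = 0.00208) without WT replicate 1, which read highest. The probe set 1427503_at read 9.08, 9.62 and 9.73 in Tg, against 10.65, 10.18 and 9.44 in WT, with overlap and without passing (−0.61 ± 0.24, adjusted p = 0.141). The other 2 Ighg3 probe sets did not pass and were below the array's median level on all 12 arrays.

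No probe set that carries a light chain constant region passed. The signal of 1427455_x_at lay near the top of the scale, at ranks 2 to 26. Of 21 probe sets for kappa variable segments alone, 6 were higher and 0 lower in Tg (given below). The kappa probe set 1427455_x_at read 14.52, 14.54 and 14.53 in Tg unstimulated arrays, against 14.42, 14.47 and 14.43 in WT unstimulated arrays, and the changes of the 3 kappa probe sets were 0.06 to 0.10. The lambda probe set 1424931_s_at, which reads Iglc1 and Iglv1, was at 12.64, 12.82 and 13.06 in Tg, against 12.80, 12.70 and 12.63 in WT (0.13 ± 0.1, adjusted p = 0.474).

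**Figure D2:**
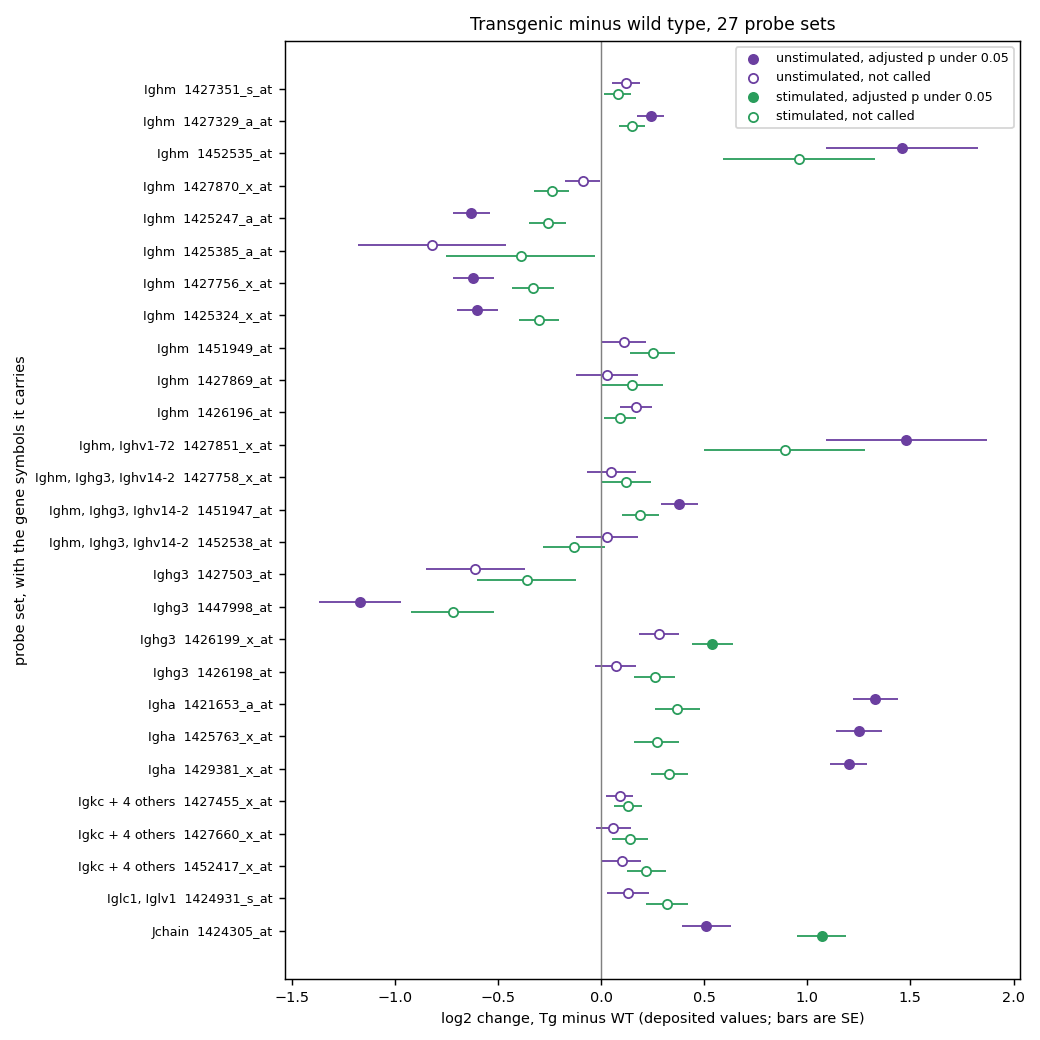
Log2 change, Tg minus WT (horizontal axis, deposited values), of each of the 27 probe sets (vertical axis) in unstimulated (purple) and stimulated (green) cells; bars are the SE and filled points passed an adjusted p of 0.05. In unstimulated cells 12 points are filled, with Igha at 1.20 to 1.33, and in stimulated cells 2 are filled, Jchain at 1.07 and 1426199_x_at at 0.54.

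The same comparison was made 2 days after stimulation. Jchain had the larger of the only 2 changes among the 27 that passed between the stimulated genotypes. Both were higher in Tg, and 2 of 27 stands against 1.86% of all probe sets, with 0.868% higher and 0.995% lower. Jchain read 11.76, 12.02 and 11.94 in Tg stimulated arrays, against 10.99, 10.99 and 10.53 in WT stimulated arrays. Every Tg array was above every WT array, and the change of 1.07 ± 0.12 (2.1-fold, adjusted p = 0.000355) was kept under all alternatives tried. Plasma cell markers were higher in Tg at 1 of 8 in these cells (mean level 8.71 to 8.85 in Tg, 8.50 to 8.69 in WT), marginal zone markers at 3 of 6 (8.03 to 8.08 in Tg, 7.65 to 7.75 in WT), B-1 cell markers at 1 of 6 (6.21 to 6.33 in Tg, 6.0 to 6.08 in WT), granulocyte markers at 3 of 8 (5.32 to 5.60 in Tg, 4.82 to 4.93 in WT) and macrophage markers at 2 of 8 (6.03 to 6.33 in Tg, 5.57 to 5.75 in WT). B cell, erythroid and T and NK cell markers were higher at 0. Anxa2, the B-1 call, was lost without WT replicate 2 or 3 or any Tg replicate (adjusted p = 0.0645 to 0.121 by limma). Cd9 (marginal zone) was lost without WT replicate 1 or 2 or Tg replicate 1 or 3. Lcn2 (granulocyte) was lost without any one WT replicate or Tg replicate 2 or 3, and Lyz2 and Cd14 (macrophage) without WT replicate 3. The part of these cells in the Jchain difference was not tested.

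The second call was the Ighg3 probe set 1426199_x_at, which read 4.17, 4.46 and 4.52 in Tg stimulated arrays, against 3.97, 3.79 and 3.77 in WT stimulated arrays (0.54 ± 0.098, 1.45-fold, adjusted p = 0.0119). All of these values are below the median of their array, and the call was lost without replicate 2 or 3 of either genotype (adjusted p = 0.0554 to 0.0676). The other Ighg3 probe sets did not follow it: 1447998_at read 7.02, 7.07 and 7.58 in Tg, against 7.98, 8.0 and 7.86 in WT (−0.72 ± 0.2, adjusted p = 0.107), and 1427503_at changed by −0.36 ± 0.24 (adjusted p = 0.698).

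At the 3 Igha probe sets the stimulated genotypes differed by 0.27 to 0.37 without passing. The probe set 1421653_a_at read 7.70, 8.06 and 7.79 in Tg stimulated arrays, against 7.68, 7.41 and 7.34 in WT stimulated arrays (0.37 ± 0.11, adjusted p = 0.155). The kappa probe sets changed by 0.13 to 0.22 and the lambda probe set by 0.32 ± 0.1 (adjusted p = 0.167), none of which passed. No Ighm probe set passed, with 1427351_s_at at 14.48, 14.53 and 14.46 in Tg, against 14.45, 14.41 and 14.37 in WT (0.08, adjusted p = 0.786), and 1425247_a_at at 10.05, 10.04 and 10.15 in Tg, against 10.25, 10.30 and 10.48 in WT (−0.26, adjusted p = 0.213).

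Stimulation moved the immunoglobulin probe sets in opposite directions. After 2 days 4 Ighm probe sets had risen 6.79-fold to 16.5-fold in both genotypes, while Igha and Jchain had fallen. In Tg cells 19 of the 27 passed, 8 up and 11 down, against 55.2% of all probe sets, 30.1% up and 25.1% down. In WT cells 17 passed, 6 up and 11 down, against 56.8% of all, 30.7% up and 26.1% down. A count near the background share is no result about these genes, and the split depends on scaling: on the deposited values it was 4 up and 19 down in Tg and 4 up and 18 down in WT, and after subtracting array medians 13 up and 6 down in Tg and 10 up and 7 down in WT. The median change over all probe sets was −0.40 in both genotypes on the deposited values and 0.04 after quantile normalization, and the median of the 27 after it was −0.22 in Tg and −0.11 in WT.

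The rising probe sets all carry Ighm alone in the annotation. The probe set 1425247_a_at read 10.05, 10.04 and 10.15 in Tg stimulated arrays, against 6.46, 6.20 and 6.27 in Tg unstimulated arrays (4.04 ± 0.085, 16.5-fold, adjusted p = 2.30e-12). In WT it read 10.25, 10.30 and 10.48 in stimulated arrays, against 6.98, 6.97 and 6.87 in unstimulated arrays (3.59 ± 0.085, 12-fold, adjusted p = 5.47e-12). Stimulated and unstimulated arrays were thus separated by more than 3 log2 units in each genotype. The probe set 1427756_x_at rose 10.1-fold in Tg and 7.62-fold in WT, 1425324_x_at 9-fold in Tg and 6.79-fold in WT, and 1427870_x_at 7.6-fold in Tg and 8.1-fold in WT. Their profiles over the 12 arrays, centred on the mean of each, lay 0.17 to 0.48 log2 units apart as a root mean square, beside ranges of 3.23 to 4.49. These 4 were picked for rising over 2 log2 units in both genotypes on the same values. Their closeness is therefore partly set by that choice and is no separate evidence that they form a group. The sources used here do not say which heavy chain transcripts these 4 read.

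For the Ighm probe sets near the top of the scale the effect of stimulation depended on scaling. The deposited values of 1427329_a_at were 13.99, 14.00 and 14.00 in Tg stimulated and 13.86, 13.87 and 13.81 in WT stimulated arrays, and those in unstimulated arrays are given above. On these values it changed by −0.24 in Tg (adjusted p = 0.00422) and −0.15 in WT (adjusted p = 0.0488), with array medians subtracted by 0.40 in Tg and 0.47 in WT, which also passed, and after quantile normalization by −0.04 in Tg and −0.02 in WT, which did not. Quantile normalization gives the probe set at rank 1 a common value, so 1427351_s_at was at 14.52 on every array and its change there has no meaning, and values near that rank have little room to move. The probe set 1425385_a_at fell by 1.58 in Tg (adjusted p = 0.00322) and by 2.10 in WT (adjusted p = 0.000382). The pair 1452535_at and 1427851_x_at, which lay 0.3 apart, passed in neither genotype (−0.88 and −0.48 in Tg, −0.09 and 0.35 in WT). Of the dimmer probe sets, 1426196_at changed by 0.21 in Tg (adjusted p = 0.0273) and 0.27 in WT (adjusted p = 0.00663) and the shared 1427758_x_at by 0.52 in Tg (adjusted p = 0.00233) and 0.42 in WT (adjusted p = 0.00875), but both were below 0 in each genotype on the deposited values, and the Tg call of 1426196_at was lost without Tg unstimulated replicate 3 or any Tg stimulated replicate. The shared 1451947_at fell by 0.62 in Tg and by 0.46 in WT, and 1451949_at, 1427869_at and 1452538_at passed in neither.

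**Figure D3:**
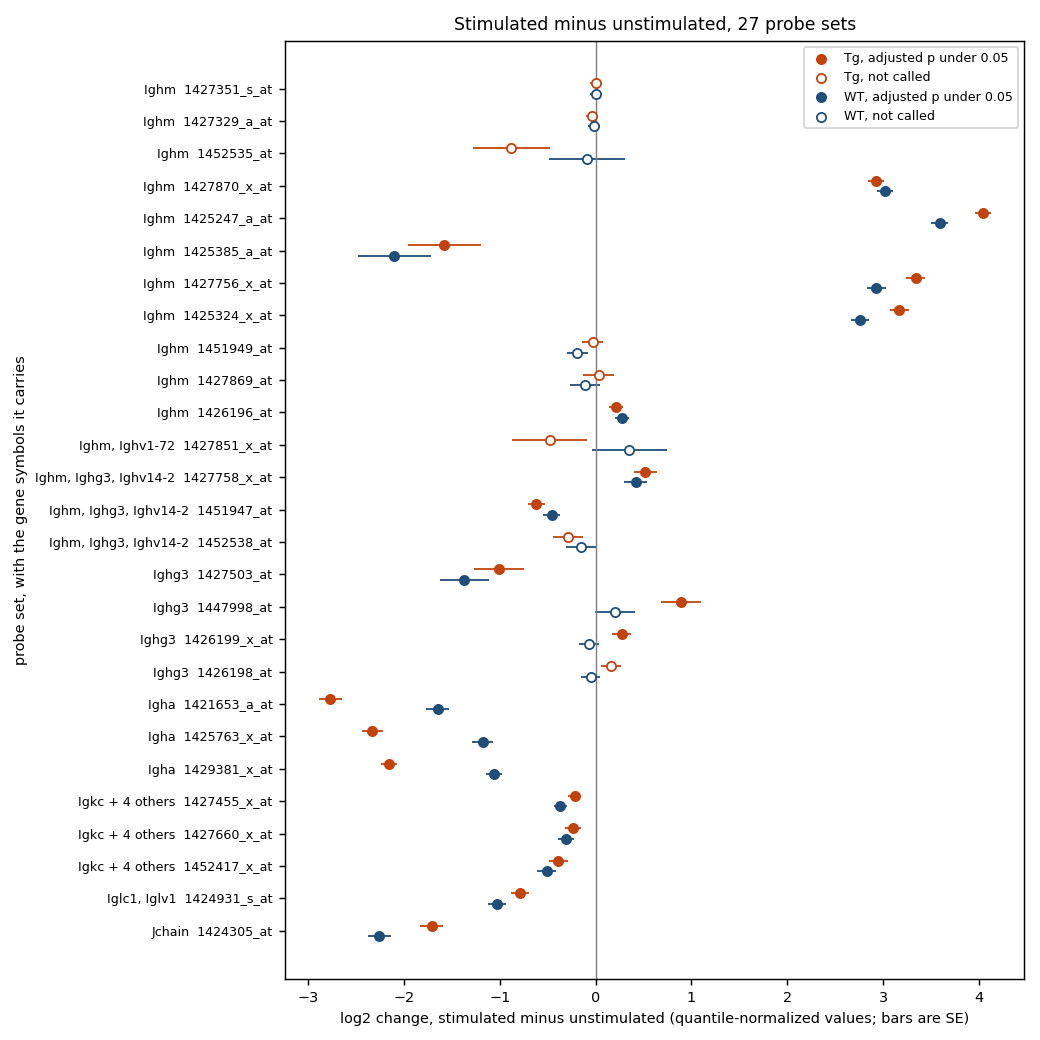
Log2 change, stimulated minus unstimulated (horizontal axis, quantile-normalized values), of each of the 27 probe sets (vertical axis) in Tg (orange) and WT (blue) cells; bars are the SE and filled points passed an adjusted p of 0.05. The 4 rising Ighm probe sets stand at 2.93 to 4.04 in Tg and 2.76 to 3.59 in WT, and Igha stands further left in Tg than in WT.

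Igha and Jchain were lower in stimulated cells, as were markers of B cells and of several other cell types. The Igha probe set 1421653_a_at changed by −2.77 ± 0.12 in Tg (adjusted p = 7.42e-10) and −1.65 ± 0.12 in WT (adjusted p = 8.47e-08), and the other 2 by −2.33 and −2.16 in Tg and by −1.18 and −1.06 in WT. Jchain changed by −1.71 ± 0.12 in Tg (adjusted p = 4.89e-08) and −2.26 ± 0.12 in WT (adjusted p = 3.19e-09). These directions were the same under each scaling tried. In the same comparison granulocyte markers fell at 8 of 8 in Tg and 4 of 8 in WT (median changes −3.78 and −0.76), macrophage markers at 8 of 8 in Tg and 4 of 8 in WT (−2.44 and −0.50), erythroid markers at 4 of 5 in Tg and 3 of 5 in WT (−2.92 and −0.55) and marginal zone markers at 6 of 6 in Tg and 3 of 6 in WT (−1.35 and −0.61). Plasma cell markers fell at 4 of 8 and rose at 4 in Tg, and fell at 3 and rose at 4 in WT (−0.22 and 0.22). B cell markers fell at 4 of 5 in both genotypes and rose at 0 (−1.11 in Tg and −1.17 in WT). B-1 cell markers fell at 3 of 6 and rose at 1 in both (−0.41 in Tg and −0.28 in WT). T and NK cell markers fell at 4 of 8 and rose at 1 in Tg, and fell at 3 and rose at 2 in WT (−0.61 and −0.24). The part of these cells in the falls of Igha and Jchain was not tested.

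The Ighg3 probe sets changed in different directions. The probe set 1427503_at read 8.42, 8.32 and 8.53 in Tg stimulated arrays, against 9.08, 9.62 and 9.73 in Tg unstimulated arrays (−1.01 ± 0.26, adjusted p = 0.00479), and 8.92, 8.82 and 8.60 in WT stimulated arrays, against 10.65, 10.18 and 9.44 in WT unstimulated arrays (−1.37 ± 0.26, adjusted p = 0.00052). With array medians subtracted the Tg change was −0.41 and did not pass (adjusted p = 0.16). The probe set 1447998_at moved the other way, by 0.89 ± 0.21 in Tg (adjusted p = 0.00266) and by 0.20 in WT (adjusted p = 0.44), the WT value being 0.49 (adjusted p = 0.00896) without WT unstimulated replicate 1. On the deposited values its Tg change was 0.34 and did not pass (adjusted p = 0.138). The dim 1426199_x_at changed by 0.27 in Tg (adjusted p = 0.04 by limma) and by −0.07 in WT (adjusted p = 0.579). Its Tg call was lost without any Tg unstimulated replicate or Tg stimulated replicate 2 or 3, and on the deposited values that change was −0.23. Neither change of 1426198_at passed (0.16 in Tg and −0.05 in WT). The 4 Ighg3 probe sets thus did not report one common change, and their centred profiles lay 0.17 to 0.95 apart.

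The light chain probe sets were lower after stimulation once arrays were quantile-normalized. The 3 kappa probe sets changed by −0.39 to −0.22 in Tg and by −0.51 to −0.31 in WT, and all passed, but with array medians subtracted they changed by 0.12 to 0.35 in Tg and 0.06 to 0.25 in WT. The probe set 1427455_x_at lay at ranks 2 to 26, and quantile normalization put it at 14.35 on every unstimulated array. Its change and p-value there rest partly on that common value. In Tg the call of 1427660_x_at was lost without replicate 1 or 3 of either state and that of 1427455_x_at without Tg stimulated replicate 1 (adjusted p = 0.0501). The lambda probe set read 12.17, 12.15 and 12.28 in Tg stimulated and 11.88, 11.82 and 11.94 in WT stimulated arrays, changes of −0.79 ± 0.096 in Tg (adjusted p = 1.23e-05) and −1.03 ± 0.096 in WT (adjusted p = 9.01e-07) that came to 0.00 in Tg and −0.21 in WT (adjusted p = 0.0817) with array medians subtracted.

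The interaction asked whether stimulation acted differently in the genotypes. It passed at 3 of the 27 probe sets, against 1.58% of all probe sets (0.575% higher and 1.00% lower), and all 3 were those of Igha. On the deposited values the change in Tg minus that in WT was −0.96 ± 0.16 at 1421653_a_at (adjusted p = 0.0104), −0.98 ± 0.16 at 1425763_x_at (adjusted p = 0.00844) and −0.87 ± 0.13 at 1429381_x_at (adjusted p = 0.0038). The falls given above are on quantile-normalized values, so their differences are not these numbers. At 1421653_a_at the 4 groups stood in the order Tg unstimulated, WT unstimulated, Tg stimulated and WT stimulated, and the last 2 do not differ beyond the test. The calls were kept under all alternatives tried. The interaction of Jchain ran the other way and did not pass (0.56 ± 0.17, adjusted p = 0.156). Markers of other cells had interactions of the same sign: granulocyte markers at 8 of 8 (median −2.97), macrophage markers at 4 of 8 (−0.74), erythroid markers at 3 of 5 (−1.94) and marginal zone markers at 2 of 6 (−0.45), with none of the opposite sign, and B cell, B-1 cell and T and NK cell markers at 0. Among these, the call of the marginal zone marker Asb2 was lost without most single arrays (adjusted p = 0.0537 to 0.11 by limma). That of the erythroid marker Slc4a1 was lost without any of several single arrays (adjusted p = 0.0505 to 0.0645). Plasma cell markers had an interaction at 2 of 8, both lower: Prg2 at −2.18 ± 0.39 (adjusted p = 0.0147) and Xbp1 at −0.60 ± 0.12 (adjusted p = 0.0268), the second of which was lost after quantile normalization (adjusted p = 0.05) and without any of 9 single arrays (adjusted p = 0.0502 to 0.0831). The part of these cells in the Igha interaction was not tested.

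Genes that make, switch, assemble or bind immunoglobulin were then counted, each at its brightest probe set. In unstimulated cells 5.45% of all 18193 genes were higher and 4.90% lower in Tg, and in stimulated cells 1.24% were higher and 1.10% lower. Of the 15 measured genes of assembly and secretion in the endoplasmic reticulum, 8 were higher and 0 lower in Tg unstimulated cells (median change 0.32, against 0.01 over all genes), and 4 were higher and 0 lower in Tg stimulated cells (median 0.28, against 0.00). Derl3, which helps remove misfolded proteins, was higher by 0.81 ± 0.086 in unstimulated (adjusted p = 8.78e-05) and 0.55 ± 0.086 in stimulated cells (adjusted p = 0.00424). The disulfide isomerase Pdia4 was higher by 0.70 ± 0.12 in unstimulated cells (adjusted p = 0.00331). Its relative Txndc5 was higher by 0.62 ± 0.14 in unstimulated (adjusted p = 0.0172) and 0.85 ± 0.14 in stimulated cells (adjusted p = 0.00695), the first of which was lost without Tg unstimulated replicate 2 or 3 (adjusted p = 0.0586 and 0.0831). With only the unstimulated arrays fitted the list gave 5 calls, and in stimulated cells it gave 2 without WT replicate 2 or 3 or Tg replicate 1 or 2.

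The list drawn up around the switch of heavy chain mRNA from the membrane to the secreted form had 2 of 11 higher and 0 lower in Tg unstimulated cells, beside a median of −0.09. Its genes need not all act towards the secreted form. They were Hnrnpll, an RNA-binding regulator of splicing, at 1.38 ± 0.16 (adjusted p = 0.000187) and Tent5c, a poly(A) polymerase that lengthens immunoglobulin mRNA tails, at 0.84 ± 0.14 (adjusted p = 0.00253). In stimulated cells 1 of 11 was higher and 0 lower, and none without WT replicate 2 or 3 or Tg replicate 1 or 2. Of 11 measured transcription factors of immunoglobulin genes 1 was higher in each state and 0 lower: Xbp1 in unstimulated cells, and in stimulated cells Prdm1, the repressor that drives plasma cell differentiation (0.82 ± 0.15, adjusted p = 0.0117), which was lost without WT replicate 3 or Tg replicate 1 or 2. Genes of class switching and its IL-4 signal were lower in Tg unstimulated cells at 5 of 12 and higher at 0, with Rif1, which protects DNA ends, at −0.82 ± 0.11 (adjusted p = 0.000646), its partner Trp53bp1 at −0.74 ± 0.13 (adjusted p = 0.00312) and the uracil glycosylase Ung at −0.58 ± 0.13 (adjusted p = 0.0118). The list gave 2 calls with only the unstimulated arrays fitted, and 0 of 12 in either direction in stimulated cells. Of 7 measured surface partners of the antigen receptor 1 was higher in Tg unstimulated cells, Cd81, a membrane protein of the tetraspanin family, at 0.36 ± 0.082 (adjusted p = 0.0153), a call lost without Tg replicate 3 (adjusted p = 0.0634), and 0 passed in stimulated cells.

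Receptors that bind immunoglobulin differed in both states. In unstimulated cells 4 of 10 were higher and 1 lower in Tg: the activating IgG receptor Fcgr3 was at 1.30 ± 0.17 (adjusted p = 0.00039), its signalling chain Fcer1g at 1.08 ± 0.21 (adjusted p = 0.00767) and Fcrla at −0.72 ± 0.098 (adjusted p = 0.000622). These 5 calls became 3 without WT replicate 1, Tg replicate 1 or Tg replicate 2, and with only the unstimulated arrays fitted. Fcgr3 and Fcer1g are also expressed by the granulocytes and macrophages whose markers were higher in these arrays, and the part of those cells was not tested. In stimulated cells 2 of 10 were higher and 1 lower, with the inhibitory IgG receptor Fcgr2b at 1.00 ± 0.083 (adjusted p = 1.88e-05) and the IgM receptor Fcmr at −0.64 ± 0.082 (adjusted p = 0.000944). Fcrla was the other gene higher in stimulated cells. Its call was lost with only the stimulated arrays fitted, without WT replicate 3 or without Tg replicate 1 or 2 (adjusted p = 0.0742 to 0.119 by limma). With the replicate number as a block 5 were higher and 1 lower in stimulated cells, and with only those arrays fitted 3 were higher and 1 lower. Fcrla and Fcgr2b had interactions of 1.19 ± 0.14 (adjusted p = 0.000989) and 0.87 ± 0.12 (adjusted p = 0.00233).

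**Figure D4:**
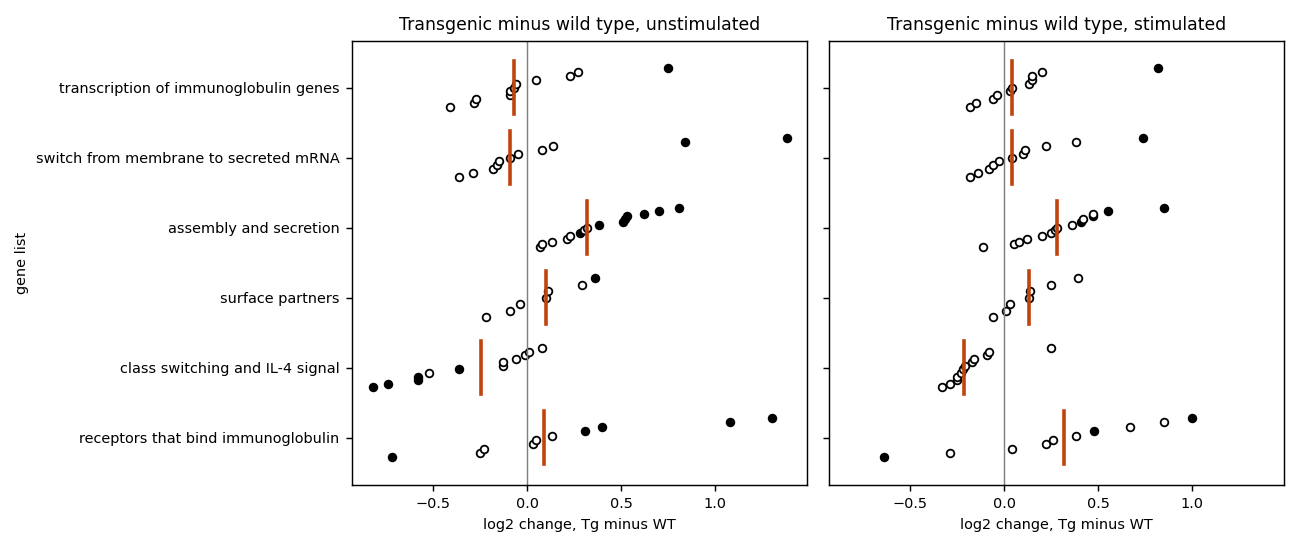
Log2 change, Tg minus WT (horizontal axes), of the measured genes of 6 lists (vertical axis) in unstimulated (left) and stimulated (right) cells. Each point is a gene, filled where it passed an adjusted p of 0.05, and the orange bar is the median of the list. In assembly and secretion 8 of 15 points are filled on the left and 4 of 15 on the right, all of them above 0.

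The same lists were counted for stimulation. Assembly and secretion genes rose at 11 of 15 and fell at 1 in Tg, and rose at 13 and fell at 2 in WT, against 35.2% up and 23.3% down over all genes in Tg and 36.0% up and 24.0% down in WT. Genes of class switching and its IL-4 signal rose at 10 of 12 in both, and fell at 1 in Tg and 2 in WT. Xrcc6, a DNA end-binding protein, was at 1.98 in Tg and 2.11 in WT. Batf, a transcription factor needed for switching, was at 1.78 in Tg and 2.15 in WT. Surface partners of the antigen receptor fell at 7 of 7 in Tg and 6 of 7 in WT, with Cd79a, a signalling chain of the receptor, at −1.60 in Tg and −1.92 in WT. Immunoglobulin receptors fell at 9 of 10 in both and rose at 1 in Tg and 0 in WT, with Fcmr falling by 4.21 in Tg and by 3.93 in WT. Transcription factors rose at 2 of 11 and fell at 7 in both. The list around the switch to the secreted form rose at 5 of 11 and fell at 2 in Tg, and rose at 4 and fell at 2 in WT. These counts were near the shares over all genes, and with array medians subtracted the list had 11 calls in Tg and 10 in WT. In it Zfp318, which is needed for Ighd expression in mouse, changed by −2.37 in Tg and −2.71 in WT, and the elongation factor Ell2, which favours the secreted form, by 1.30 in both.

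Genes most like each member were ranked by the root mean square difference of centred profiles over the 12 arrays, among 16327 genes. Nearest to Igha (range 3.44) were Cst3 at 0.19, Nxpe2 at 0.2 and Tlr13 at 0.22. Nearest to Jchain (range 3.04) were the kappa variable segment Igkv15-103 at 0.19, Hepacam2 at 0.22 and Ccpg1 at 0.24. Nearest to Ighg3 at 1427503_at (range 2.33) were Cecr2, Niban3 and Fgf13, each at 0.24. The 3 Igha probe sets lay 0.13 to 0.33 from each other and the 3 kappa probe sets 0.068 to 0.13.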

How the data were processed

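Total RNA (4 µg) of each sample was labelled with biotin and read on 1 array per sample, 12 in all, per the labels' protocols. The deposited log2 values were made by the authors with RMA in affy, per the submitters' processing notes; versions and whether all arrays were normalized together are not given in the sources used here. The 64 array controls among the 45101 probe sets were not used. Symbols came from the platform annotation: 34945 probe sets had 1 symbol (34741 updated by Entrez identifier), 932 several and 9160 none.

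A linear model per probe set (limma 3.58.1, R 4.3.3) had a coefficient for each group, all 12 arrays and no block (8 residual degrees of freedom), and p-values were adjusted by Benjamini-Hochberg over 45037 probe sets with a threshold of 0.05. Changes between states used values quantile-normalized over the 12 arrays, because array medians differed by state. The fit was tested on simulated data. Alternatives were the deposited or median-subtracted scale, only the groups compared, a filter on dim probe sets, array weights, an intensity trend, a replicate block and leaving out each array. Same-numbered arrays deviated together (r over 0.1 at each number) between stimulated genotypes (0.101 to 0.330) and between WT states (0.176 to 0.327), from which the pairing there is read. In the other comparisons they did not at each number, which does not show that those arrays were unpaired. Eif2s3y was low in the 3rd replicate of every group. Named genes are all members, up to 3 called genes of largest change per list and comparison, and the 3 genes nearest each member; other list genes named were chosen after their values were seen. The members and lists were chosen with earlier results of these data known. The number of arrays limits the precision. Only Jchain was matched to a promoter sequence.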

Additional observations from a re-analysis of the deposited data

Results flagged for a closer look

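The 3 Igha probe sets met the criterion for an effect that differs between groups under the same contrast, by the test of the interaction itself. The log2 change on stimulation in Tg minus that in WT was −0.96 at 1421653_a_at, −0.98 at 1425763_x_at and −0.87 at 1429381_x_at, and 1.58% of all probe sets passed this test. Stimulated arrays read 7.70, 8.06 and 7.79 in Tg and 7.68, 7.41 and 7.34 in WT at 1421653_a_at, and unstimulated arrays 10.57, 10.60 and 10.80 in Tg and 9.23, 9.36 and 9.38 in WT. The interaction was computed on the deposited values and stood between −1.12 and −0.86 at this probe set over all alternatives.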

How the results depend on the processing

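Of 1870 changes of the 27 probe sets under alternative settings, 1778 kept their side of the threshold, 45 lost a call and 30 gained one. Another 17, listed below, turned their direction with a call in the main or the alternative setting. Turns of direction with no call in either setting are among the 1778 and were not counted apart. Leaving out arrays gave 2174 to 7518 calls over all probe sets between unstimulated genotypes (7 to 12 of the 27), 452 to 597 between stimulated genotypes (1 to 2), 23263 to 25108 for stimulation in WT (17 to 19), 22439 to 23174 in Tg (16 to 18) and 388 to 1418 for the interaction (3 in each). Between unstimulated genotypes the count was 2611 without Tg replicate 1, 2174 without Tg replicate 3 and 7518 without WT replicate 3. Between stimulated genotypes it was 452 to 555 without any one array but Tg replicate 3. For the interaction it was 1418 without WT unstimulated replicate 3, and 388 to 446 without Tg unstimulated replicate 3 or any one stimulated array but Tg replicate 3. With only the unstimulated arrays fitted 1908 were called, and array weights gave 8258 there, 1819 between stimulated genotypes (6 of the 27) and 2189 for the interaction, against 4256, 839 (2 of the 27) and 710. Without dim probe sets (mean log2 level under 5.73) 23 of the 27 were kept, 1 was called between stimulated genotypes, and stimulation gave 15519 calls in Tg and 15818 in WT, fewer probe sets being tested.

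Subtracting array medians split the calls between unstimulated genotypes into 1550 higher and 2719 lower, against 2013 and 2243. For stimulation the deposited values gave 6181 up and 29226 down in Tg and 6363 and 29192 in WT, median subtraction 22217 and 8104 in Tg and 21383 and 8794 in WT, against 13556 and 11284 in Tg and 13813 and 11748 in WT. On the deposited values the change on stimulation turned to −0.33 at 1426196_at, −0.24 at 1426198_at, −0.23 at 1426199_x_at, −0.17 at 1427351_s_at, −0.11 at 1427758_x_at and −0.60 at 1427869_at in Tg, and to −0.25 at 1426196_at and −0.18 at 1427758_x_at in WT. With medians subtracted it turned to 0.00 at 1424931_s_at, 0.40 at 1427329_a_at, 0.12 at 1427455_x_at, 0.35 at 1427660_x_at and 0.24 at 1452417_x_at in Tg, and to 0.47 at 1427329_a_at, 0.06 at 1427455_x_at, 0.25 at 1427660_x_at and 0.10 at 1452417_x_at in WT; the cause was not tested. With the replicate block no call of the 27 changed where same-numbered arrays deviated together. The counts there were 1000 between stimulated genotypes and 25766 for stimulation in WT. For stimulation in Tg the arrays did not deviate together at each number, which does not show that they were unpaired. In that comparison the block lost 1426199_x_at (adjusted p = 0.0529 by limma) and gained 1452535_at (adjusted p = 0.0437).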

Other observations

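Variable segments were looked at after their values had been seen, as the part of the chain that the constant regions are joined to. Probe sets annotated to variable segments alone numbered 25, of which 21 read kappa, 3 lambda and 1 heavy chain segments. In unstimulated cells 6 were higher and 0 lower in Tg, all 6 kappa, with a median change of 0.49, against 4.47% higher and 4.98% lower over all probe sets. In stimulated cells 9 were higher, all kappa, and 1 lower, with a median of 0.68, against 0.868% higher and 0.995% lower over all probe sets. Igkv14-111 was higher by 1.16 in unstimulated (adjusted p = 0.00749) and 1.13 in stimulated cells (adjusted p = 0.0253), and Igkv15-103 by 1.02 in stimulated cells (adjusted p = 0.00271), by limma. The heavy chain segment Ighv14-2 at 1455530_at was lower in Tg stimulated cells, with a change of −0.96 ± 0.098 (adjusted p = 0.000146). These probe sets can read related segments, and segment use in each sample was not analysed here.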
